A study of Mus musculus with 4 samples.

Results

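Type I interferon-stimulated genes were followed here through the circulating leukocytes of mice treated for leukaemia. The set was fixed as a list of 44 gene symbols. Of these, 43 have a row among the 32287 features of the deposited tables, and Mx1 was not analysed here. Type I interferons bind a receptor present on nearly every nucleated cell, and its kinases activate STAT proteins, of which STAT2 joins IRF9 in the factor ISGF3. ISGF3 switches on genes that carry an interferon-stimulated response element near their start. The products sense viral nucleic acids, block viral entry, translation and replication, and feed back on the pathway. Part of the set is also made at a baseline level without infection, and some members are induced by interferon gamma as well.

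The samples were peripheral blood leukocytes of immunocompetent C57BL/6J mice aged 10 weeks that had been inoculated with acute lymphoblastic leukaemia (ALL). All mice received dasatinib, an inhibitor of ABL and SRC family tyrosine kinases. Blood was drawn after 1 week of the drug, when all mice were in remission, and cells were frozen, thawed and sorted as live. Treatment went on for 4 more weeks. Mice were called Cured or Relapsed only afterwards, at day 100, with 6 mice in each group. Each library pooled 3 mice, which gave 2 Cured and 2 Relapsed libraries and no untreated or leukaemia-free one, and no cell was traced to a mouse. The comparison asks which features of the blood at remission differed between mice that later relapsed and mice that did not. The pool is the replicate, so group p-values rest on 2 pools a group. In the gene tests the spread between pools is estimated partly or wholly from all genes together. Contrasts of cell sets are made within the same 4 libraries.

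Counts are unique molecular identifiers (UMIs), 1 for each captured RNA molecule, from the 10x Genomics 5′ chemistry. The libraries held 3631 to 4383 barcodes and between 7184045 and 10840397 UMIs. Cells were sorted into classes by markers that include no member: 11336 B cells, 150 CD4 T cells, 858 CD8 T cells, 708 NK cells, 326 monocytes and 1006 neutrophils. In B cells all 13 B markers were found in over 10% of cells and none of the 10 T markers was. These lists also set the gate, so this is no separate check. In NK cells 2 T markers and 1 monocyte marker reached 10% of cells, and in monocytes 1 neutrophil marker did. Median depth per B cell was 2232 and 2340 UMIs in Cured replicates 1 and 2 and 1843 and 2024 in Relapsed replicates 1 and 2. CD8 T and NK cells were also deeper in both Cured libraries. Relapsed replicate 1 stood apart in its red cell content. It held 281 barcodes dominated by haemoglobin, against 23 to 29 elsewhere, and its B cells carried 3924 haemoglobin UMIs in every 1000000 against 217 to 431. Levels below are in CPM, the summed UMIs of a gene in a class and library scaled to 1000000 UMIs of that class there. They are not corrected for transcript length, so levels of different genes are not ranked against each other. Where a level differs, fewer expressing cells and less RNA per cell cannot be told apart from the sum alone. Pairs of libraries shared 20 to 29 cell barcodes.

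**Figure D1:**
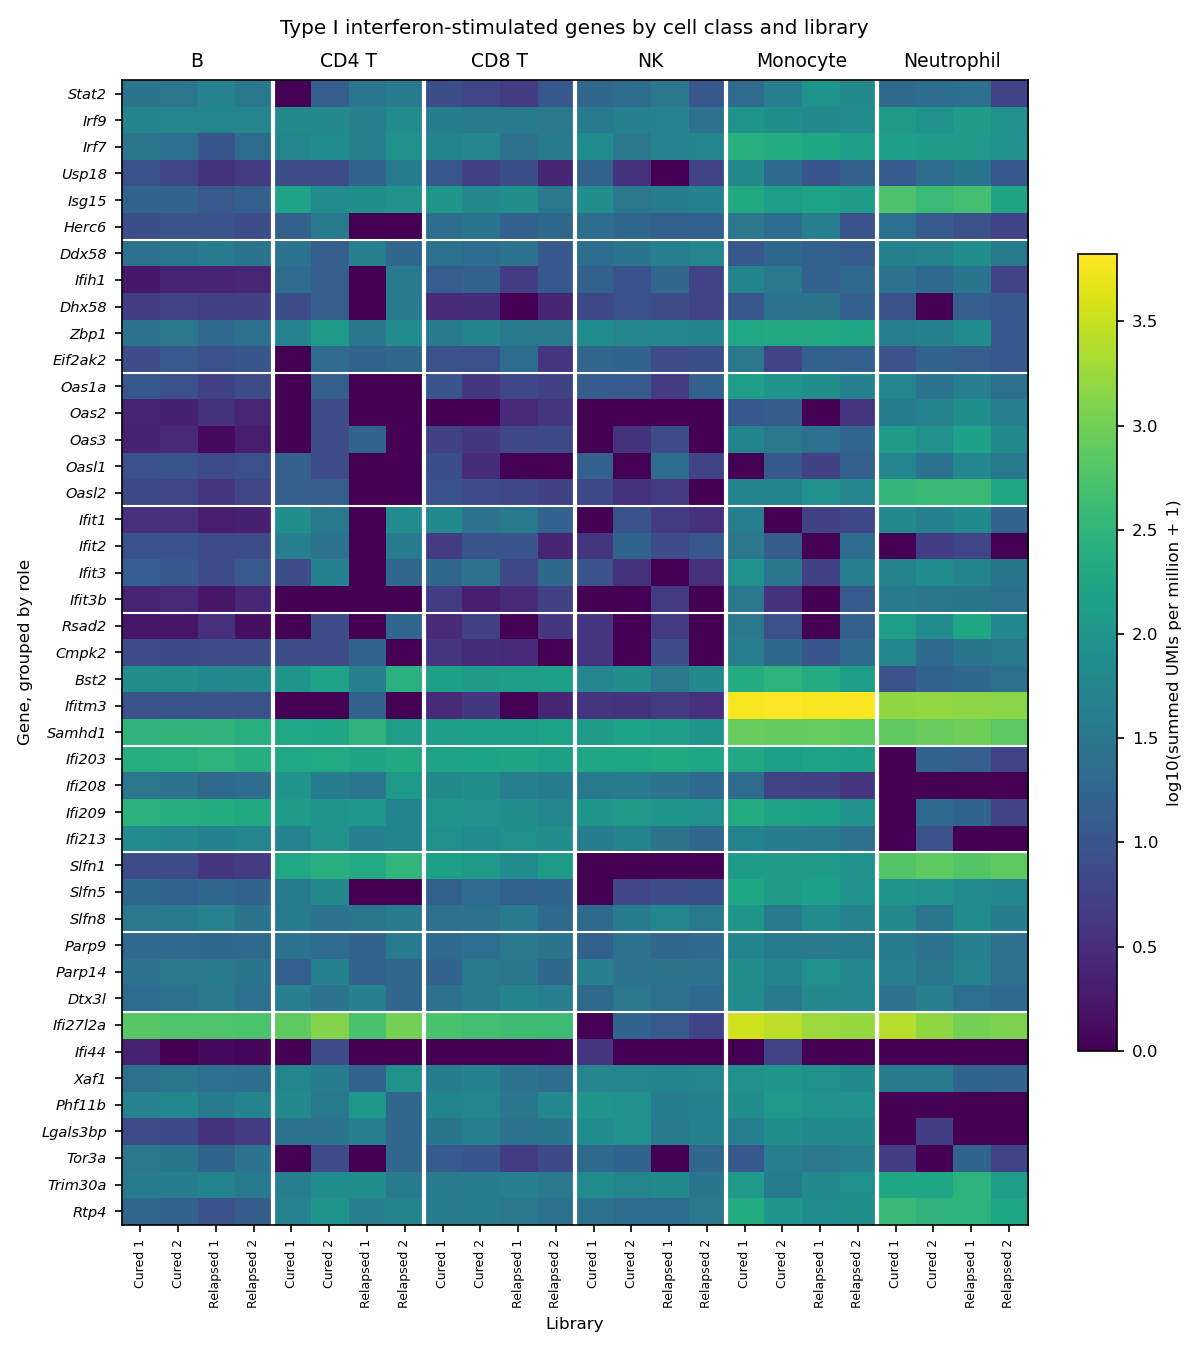
Level of each of the 43 members (rows, grouped by role) in 6 cell classes and 4 libraries (columns), as log10 of CPM plus 1. Monocyte and neutrophil columns are brightest for Ifitm3 and Ifi27l2a, and the PYHIN rows Ifi203, Ifi208, Ifi209 and Ifi213 are dark in neutrophils.

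Myeloid cells held the highest levels of most members. Monocytes had the highest mean level for 21 of 43 members and neutrophils for 16, against 3 for CD4 T cells, 2 for B cells and 1 for CD8 T cells. In 5 of the 21 and 7 of the 16 all 4 libraries of the leading class lay above all 4 of the second class. Summed over all members, monocytes held 10812 to 13848 CPM and neutrophils 5478 to 8314 CPM. B cells held 1933 to 2254 CPM, CD8 T cells 1714 to 2119 CPM, CD4 T cells 2208 to 3365 CPM and NK cells 1111 to 1401 CPM. NK cells therefore had the lowest total of the 6 classes, with no library overlapping another class. Without Ifi27l2a and Ifitm3, NK cells held 1103 to 1398 CPM. They then overlapped B cells at 1370 to 1571 CPM and CD8 T cells at 1289 to 1579 CPM, though they stayed lowest within each library. Monocytes, at 2841 to 4238 CPM, then overlapped neutrophils, at 2950 to 4588 CPM.

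Each class was also tested against the mean of the other 5, with the library as a block, by edgeR's quasi-likelihood test with Benjamini-Hochberg adjustment over 6027 genes. Of 37 members tested, 24 were higher and 1 lower in monocytes, where 29.5% of all genes were called higher and 14.9% lower. In neutrophils 24 were higher and 7 lower, against 37.5% and 32.5% of all genes. NK cells were the reverse, with 4 members higher and 20 lower against 25.6% and 15.6% of all genes. B cells had 8 higher and 19 lower (38.5% and 20.8% of all genes), CD8 T cells 10 and 12 (26.2% and 22.2%), and CD4 T cells 8 and 2 (13.3% and 9.39%). The median log2 difference over the tested members was 1.35 in monocytes and 1.60 in neutrophils, where it was 0.10 and 0.02 over all genes. It was -0.90 in NK cells and -0.56 in B cells, against 0.08 and 0.13. With cells thinned to 1000 UMIs, 19 members and 3068 genes were tested. In monocytes 12 members were called, all higher, among 1187 genes called. In neutrophils 11 were higher and 7 lower (2068 genes called), and in NK cells 1 and 9 (1206 genes). B cells had 6 higher and 5 lower (1941 genes), CD8 T cells 7 and 1 (1262 genes) and CD4 T cells 3 and 1 (652 genes). After thinning, the share of members called in either direction was thus near that of all genes in B, CD8 T and CD4 T cells. Unthinned, 27 of 37 members and 3578 of 6027 genes were called in B cells, where more members were lower than higher. In CD8 T cells 22 members and 2917 genes were called, and in CD4 T cells 10 members and 1368 genes.

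Among the signalling and feedback genes, Irf7 encodes the factor that amplifies interferon production once induced. Its level in monocytes was 252 and 232 CPM in Cured replicates 1 and 2 and 176 and 140 CPM in Relapsed replicates 1 and 2. Neutrophils followed at 138, 128, 115 and 88.3 CPM in the same order of libraries. All 4 monocyte libraries were above all 4 neutrophil libraries, and B cells were lowest at 30.3, 24.2, 9.68 and 21.8 CPM. CD4 T, NK and CD8 T cells lay between, at means of 64.3 ± 17.8, 52.4 ± 16.4 and 42.1 ± 15.03 CPM (SD, n = 4), and did not separate from each other.

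Isg15 encodes a ubiquitin-like protein that is attached to other proteins. Neutrophils held 574, 403, 478 and 172 CPM, monocytes 210, 136, 166 and 123 CPM, and B cells 15.5, 15.3, 10.6 and 13.7 CPM, in the order Cured 1, Cured 2, Relapsed 1, Relapsed 2. B cells were below every library of every other class. Neutrophils did not separate fully from monocytes, because Relapsed replicate 2 lay in the monocyte range. Usp18, the protease that removes ISG15 and dampens the receptor, was sparse everywhere. Its mean was 26.6 ± 24.6 CPM in monocytes, 18.6 ± 9.33 in neutrophils and 4.81 ± 2.41 in B cells. The monocyte mean rested on Cured replicate 1 at 62.9 CPM, with the others at 9.49 to 20.2.

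Stat2 and Irf9, which encode subunits of ISGF3, were spread differently. Stat2 was at 55.1 ± 31.3 CPM in monocytes and 35.4 ± 8.60 in B cells, which overlapped, and at 6.67 ± 2.91 in CD8 T cells (n = 4). CD8 T cells were lower than the mean of the other classes in Stat2 (log2 difference -1.64, SE 0.34, edgeR adjusted p = 7.66e-06). Irf9 ranged only from 36.6 CPM in CD8 T cells to 105 CPM in neutrophils as class means.

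**Figure D2:**
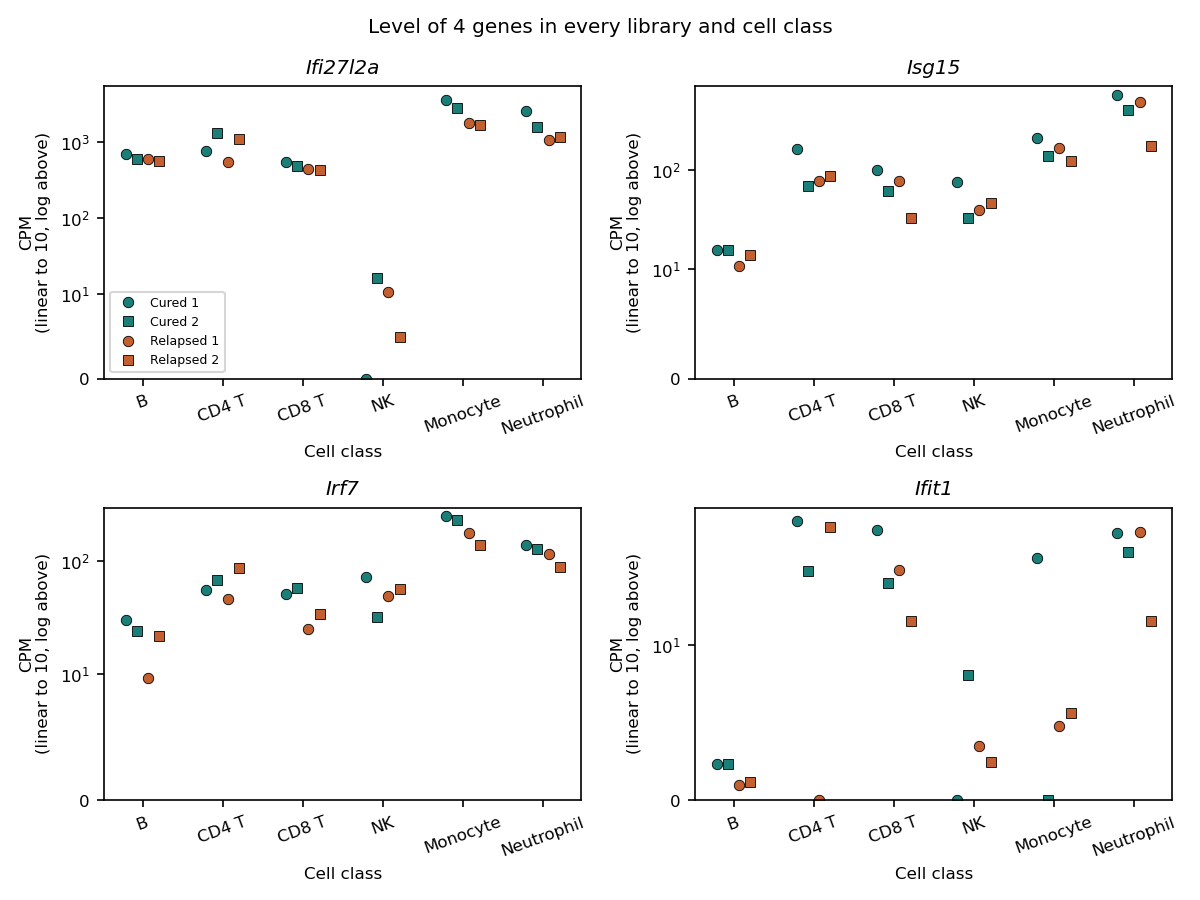
Level of Ifi27l2a, Isg15, Irf7 and Ifit1 in each library (points, Cured green, Relapsed orange) and cell class, in CPM on an axis that is linear up to 10 and logarithmic above. Ifi27l2a lies between 1625 and 3515 in monocytes and at or below 16.2 in NK cells, and Ifit1 is higher in CD8 T cells than in B cells in every library.

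Among the sensors, Zbp1, which binds left-handed nucleic acids and can start cell death, was highest in monocytes at 189, 202, 209 and 176 CPM. The second class, CD4 T cells, reached at most 116 CPM, and B cells had 25.8 ± 5.50 CPM (n = 4). The RNA helicase genes Ddx58 and Ifih1, which encode RIG-I and MDA5, placed B cells and monocytes in opposite order by mean level. For Ddx58, neutrophils and NK cells were above B cells. Ddx58 was lowest in monocytes at a mean of 13.4 CPM, below the mean of the other classes (log2 difference -1.43, SE 0.36, edgeR adjusted p = 0.000339). Ifih1 was lowest in B cells at a mean of 1.26 CPM and highest in monocytes at 29.8 CPM. Its log2 difference in B cells was -3.56 (SE 0.36, edgeR adjusted p = 7.51e-21).

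The OAS genes encode enzymes or enzyme relatives that detect double-stranded RNA, and 4 of the 5 were led by neutrophils. Oasl2 in neutrophils was at 334, 372, 390 and 177 CPM, against 61.0 ± 16.3 CPM in monocytes and at most 13.9 CPM in any library of the lymphoid classes. Its log2 difference from the other classes was 5.65 (SE 0.17, edgeR adjusted p = 5.23e-129). Oas2, Oas3 and Oasl1 were also separated in neutrophils, at means of 53.5, 108 and 43.8 CPM. Oas1a was instead highest in monocytes at 89.5 CPM and overlapped neutrophils. Its sequence is 97.6% identical to Oas1g over 1861 bases, so reads could be divided between them.

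The IFIT genes, whose products bind foreign RNA ends and hold back translation, divided by lineage. Ifit1 (chromosome 19, 34640871 to 34650009, plus strand, GENCODE M21 on GRCm38) was at 66.5, 27.9, 34.4 and 14.9 CPM in CD8 T cells and at 2.32, 2.34, 0.944 and 1.14 CPM in B cells. Every CD8 T library was above every B cell library. Ifit1 carried 59.5% of the 215 IFIT UMIs of CD8 T cells and 8.36% of the 538 IFIT UMIs of B cells, where Ifit3 and Ifit2 made up 48.9% and 35.5%. An Ifit1 UMI was found in 90 of 858 CD8 T cells and 37 of 11336 B cells, at median depths of 3290 to 3879 and 1843 to 2340 UMIs. Against the mean of the other classes Ifit1 was higher in CD8 T cells (log2 difference 2.00, SE 0.26, edgeR adjusted p = 1.63e-12) and lower in B cells (-3.28, SE 0.40, adjusted p = 2.42e-14). Neutrophils reached the same Ifit1 level as T cells, at 62.9, 46.5, 64.1 and 14.7 CPM. Ifit3 was at 50.3 ± 16.5 CPM in neutrophils, 40.2 ± 33.0 in monocytes, 16.8 ± 8.43 in CD8 T cells, 10.0 ± 2.63 in B cells and 3.44 ± 3.66 in NK cells (SD, n = 4). Neighbours in that order overlapped. Ifit3 and Ifit3b are 97.8% identical over 1700 bases, and the split of reads between them is uncertain.

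Of the antiviral effectors, Ifitm3, a membrane protein that blocks virus entry by fusion, was at 6095, 6657, 6024 and 6346 CPM in monocytes and at 1568, 1609, 1439 and 1369 CPM in neutrophils. B cells were at 8.38 ± 0.314 CPM, and CD4 T, CD8 T and NK cells had 1, 6 and 4 UMIs of it. Monocytes were above the mean of the other classes by 8.87 on the log2 scale (SE 0.09), the largest positive difference of any member in any class. Samhd1, which depletes the nucleotides needed for reverse transcription, was at 822 ± 98.7 CPM in neutrophils and 810 ± 56.8 CPM in monocytes, which overlapped. It was lower in B cells, at 308, 312, 304 and 257 CPM. Bst2 encodes tetherin, which holds virus particles to the cell surface. It was at 231, 292, 228 and 140 CPM in monocytes, 138 ± 9.38 CPM in CD8 T cells, 68.2 ± 8.69 CPM in B cells and 16.6 ± 6.95 CPM in neutrophils. Rsad2, which encodes viperin, was separated in neutrophils at 134, 69.8, 184 and 58.9 CPM, with monocytes at 13.3 ± 13.4 CPM.

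The 4 PYHIN genes, relatives of the DNA sensor AIM2, were all called lower in neutrophils. In monocytes Ifi209 was higher (log2 difference 0.74, SE 0.17, edgeR adjusted p = 4.58e-05) and the other 3 did not pass. Ifi203 was highest in B cells at 240, 261, 292 and 238 CPM, above all libraries of the second class, CD4 T cells (196 ± 22.1 CPM). In neutrophils it was at 0, 15.5, 13.3 and 4.91 CPM. Ifi209 was at a mean of 243 CPM in B cells and 10.1 CPM in neutrophils. Ifi208 was highest in CD4 and CD8 T cells at 72.8 and 56.7 CPM, and it had 0 UMIs of 1090708 in neutrophils, where 3 UMIs would be 2.75 CPM. B cells exceeded the mean of the other classes for Ifi209 (log2 difference 1.93, SE 0.09), Ifi208 (1.60, SE 0.41) and Ifi203 (1.46, SE 0.09). By mean level, CD4 T, CD8 T and NK cells were still above B cells in Ifi208. The edgeR adjusted p was 2.10e-71 for Ifi209, 0.000236 for Ifi208 and 8.24e-48 for Ifi203. These genes lie in 1 cluster on chromosome 1 and share sequence: Ifi208 and Ifi213 are 96.4% identical over 2749 bases, Ifi209 and Ifi214 96.9% over 1946 bases, and Ifi203 shares exons with Mndal.

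The Schlafen genes are tied to growth control and lymphocyte quiescence. Slfn1 was at 625, 760, 635 and 751 CPM in neutrophils, separated from CD4 T cells at 195, 245, 215 and 332 CPM. CD8 T cells and monocytes followed at 114 ± 30.5 and 116 ± 15.997 CPM, and B cells had 5.01 ± 1.97 CPM. NK cells had 0 UMIs of Slfn1 among 1413813, where 3 UMIs would be 2.12 CPM. Slfn5 was highest in monocytes at a mean of 135 CPM.

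Ifi27l2a (chromosome 12, 103442167 to 103443680, minus strand), a gene for a small hydrophobic protein strongly induced by interferon, was abundant in every class but 1. It was at 607 ± 52.7 CPM in B cells, 908 ± 329 in CD4 T cells, 469 ± 52.8 in CD8 T cells, 1563 ± 653 in neutrophils and 2412 ± 897 in monocytes. NK cells had 11 UMIs of it in 708 cells, a level of 7.90 ± 6.99 CPM (log2 difference from the other classes -7.39, SE 0.41, edgeR adjusted p = 9.33e-11). It supplied 28.6% of all member UMIs in B cells. Phf11b, a PHD finger gene, had 0 UMIs in neutrophils and a mean of 90.2 CPM in monocytes. Lgals3bp, a secreted glycoprotein gene, was at means of 63.4 and 59.9 CPM in monocytes and NK cells, 0.969 CPM in neutrophils.

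Between the groups, the summed level of the members was somewhat higher in the Cured libraries in 5 of 6 classes, and few single genes differed by the test. In B cells the sum was 2254 and 2176 CPM in Cured and 2104 and 1933 in Relapsed. CD8 T cells held 2119 and 2027 against 1800 and 1714 CPM, and NK cells 1401 and 1400 against 1270 and 1111 CPM. Monocytes held 13848 and 12844 against 11136 and 10812 CPM, and neutrophils 8314 and 7172 against 7087 and 5478 CPM. The groups did not overlap in these 5 classes, while in CD4 T cells, at 2659 and 3365 against 2208 and 3196 CPM, they did. With 2 libraries a group the exact permutation test cannot go below p = 0.33. Without Ifi27l2a and Ifitm3 the neutrophil sums overlapped, at 4253 and 4020 against 4588 and 2950 CPM, and the other 4 classes kept their separation.

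By mean level, 30 of 43 members were higher in Cured in B cells, 32 of 42 in CD8 T cells, 27 of 41 in NK cells and 35 of 43 in monocytes. Neutrophils and CD4 T cells were split, with 21 of 40 and 20 of 42. These counts include sparse members and have no all-gene share beside them. Past the low-count filter, 28 of 39 members in B, 18 of 27 in CD8 T and 12 of 17 in NK cells had a positive log2 fold change. It was positive for 20 of 27 in monocytes, 11 of 22 in neutrophils and 3 of 7 in CD4 T cells. Of all genes past the filter, 48.1% to 49.9% were positive in each class. In B cells each Cured library exceeded each Relapsed library for 21 of 43 members, and 4 had the reverse, against 18.8% and 18.9% of all genes. In CD8 T cells 17 of 42 were higher and 5 lower (18.9% and 13.4% of all genes), and in monocytes 16 of 43 and 2 (12.3% and 17.1%). Neutrophils had 10 of 40 and 3 (12.7% and 14.3%), NK cells 8 of 41 and 2 (15.2% and 15.7%), and CD4 T cells 4 of 42 and 2 (16.9% and 12.6%). The median log2 fold change (Cured over Relapsed) of the members that passed the low-count filter was 0.23 in B, 0.30 in CD8 T, 0.27 in NK and 0.24 in monocytes. It was -0.02 in neutrophils and -0.16 over the 7 members tested in CD4 T cells, and between -0.013 and -0.00074 over all genes of each class. Without the low-count filter it was 0.23 over 42 members in CD4 T cells, where the median of all genes was 0.29.

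These medians moved when cells were thinned and when single libraries were left out. Depth per cell was higher in the Cured libraries of B, CD8 T and NK cells. With cells thinned to 1000 UMIs the median was 0.20 over 36 members in B, 0.086 over 11 in CD8 T and -0.077 over 5 in NK cells. Unthinned, 39, 27 and 17 members passed the filter in these classes, so the thinned medians cover fewer genes. The parts of depth and of the smaller gene sets in the change were not tested. Under a gate of 2 markers it was 0.080 in NK cells and 0.16 in monocytes. Libraries were also left out in turn. In B cells leaving out Relapsed replicate 1 gave 0.13 and leaving out Cured replicate 2 gave 0.14. In CD8 T cells the values were 0.14 and 0.19 when Cured replicate 1 or 2 was left out, and 0.16 when Relapsed replicate 2 was. The NK median dropped to 0.14 with Cured replicate 1 left out, and to 0.033 with Relapsed replicate 2 left out. The monocyte median was 0.53 when Cured replicate 2 was omitted. For neutrophils the omission of Cured replicate 1 or 2 gave 0.015 or 0.15, and that of Relapsed replicate 1 or 2 gave 0.55 or -0.19. For CD4 T cells the omission of Cured replicate 1 gave 0.0067, and that of Relapsed replicate 1 or 2 gave -0.089 or 0.53.

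**Figure D3:**
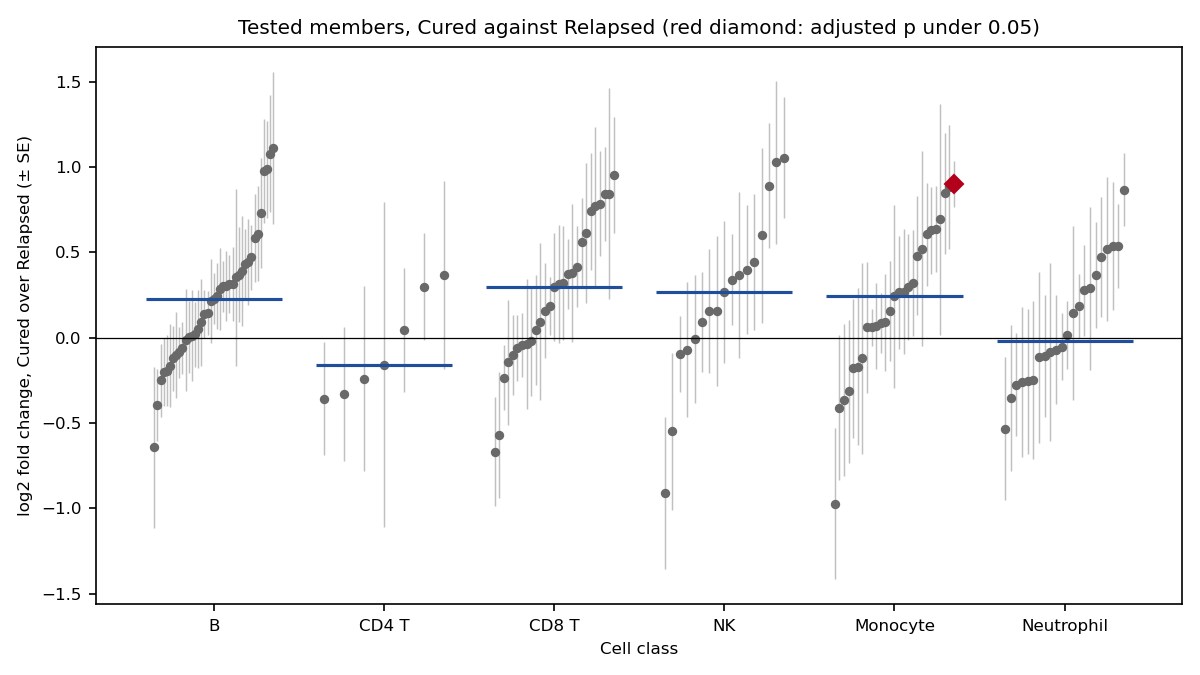
Log2 fold change, Cured over Relapsed, of every tested member in each cell class (points, with the standard error as a bar), ordered within a class, with the class median as a blue line. The red diamond is Ifi27l2a in monocytes, the single member past an adjusted p of 0.05.

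By edgeR's quasi-likelihood test 1 member passed in the 6 classes. This was Ifi27l2a in monocytes, where 0.0816% of 3675 genes (3 genes, all higher in Cured) were called. Its level was 3515 and 2766 CPM in Cured and 1741 and 1625 CPM in Relapsed, and the groups did not overlap (log2 fold change 0.90, SE 0.13, edgeR adjusted p = 7.14e-05). Classical monocytes, those with UMIs of Ccr2, F13a1 or Fn1 and none of Ace, Adgre4, Eno3 or Treml4, held 4607 and 4028 against 2583 and 3099 CPM, from 8, 22, 14 and 16 cells. Non-classical monocytes, with the opposite pattern, held 960 and 1612 against 1068 and 1051 CPM, and there the groups overlapped. Monocytes with both kinds of marker or neither held 6899 and 2795 against 1845 and 1535 CPM, from 5, 31, 15 and 30 cells. In Cured replicate 1 those 5 cells held 144 of its 335 Ifi27l2a UMIs. The summed non-classical markers were lower in Cured, at 913 and 971 against 1252 and 1289 CPM, and classical markers were at 2633 and 2340 against 2229 and 2226 CPM. The part of this shift in the monocyte result was not tested.

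Cured replicate 1 had only 34 monocytes, and 3 of them carried 44.8% of its Ifi27l2a UMIs. Without the top 3 cells of each library the levels were 2333 and 2562 against 1369 and 1368 CPM, still without overlap. Another gate asked for 2 markers of the lineage, which lets more cells in, and fewer than 2 of any other, which removes cells. Its levels were 2791 and 2750 against 1876 and 1712 CPM. The call was then lost (log2 fold change 0.64, edgeR adjusted p = 0.0564). That gate removed 6 cells of Cured replicate 1 which held 113 of its 335 Ifi27l2a UMIs. Those cells had 944 CPM of neutrophil markers against 294 in all its monocytes. With others let in, that library then had 31 monocytes with 222 Ifi27l2a UMIs. Leaving out Cured replicate 1 kept the call.

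In neutrophils Ifi27l2a was at 2492 and 1543 against 1060 and 1158 CPM, also without overlap. It did not pass (log2 fold change 0.87, SE 0.21, edgeR adjusted p = 0.362, unadjusted p = 0.000543), and 0.112% of 2667 genes were called, all lower in Cured. It passed without the low-count filter (0.84, adjusted p = 0.00518) and without Relapsed replicate 2 (0.96, adjusted p = 0.000175). An Ifi27l2a UMI was found in 47.5% and 38.3% of Cured and 29.7% and 29.2% of Relapsed neutrophils, at median depths of 954.5 and 1107.5 against 910 and 984 UMIs. NK cells, the class nearest to 0, had one in 0 to 2.86%. The same gene in B cells was at 680 and 597 against 595 and 555 CPM, and in CD8 T cells at 539 and 480 against 432 and 424 CPM. In both classes the groups were apart by little, and the gene did not pass the test. Isg15 in neutrophils had a log2 fold change of 0.54 (SE 0.38, adjusted p = 0.998). Without Relapsed replicate 1, which leaves the Relapsed library at 172 CPM, it passed at 1.46 (adjusted p = 1.63e-05).

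None of the 39 tested members passed in B cells, where 0.0% of 10215 genes did by edgeR and 7 genes did by DESeq2. At an unadjusted p under 0.05 there were 7 members among 895 genes. The smallest p-values belonged to Slfn1, at 6.65 and 6.76 against 3.07 and 3.56 CPM (log2 fold change 0.99, SE 0.28, edgeR adjusted p = 0.560), Lgals3bp (0.98, SE 0.31) and Usp18, at 8.04 and 5.20 against 2.60 and 3.42 CPM (1.08, SE 0.34). Without Relapsed replicate 2 the test called 1477 of 10490 genes and 5 of 41 members, 3 higher and 2 lower, a share of members no higher than that of all genes. Stat2 had the opposite direction from most members, at 29.2 and 31.7 against 48.1 and 32.6 CPM (-0.40, SE 0.21, adjusted p = 0.586).

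In CD8 T cells 0 of 27 tested members passed, and 0.408% of 5641 genes did. DESeq2 also called 0 members, and 6 had an unadjusted p under 0.05, as did 508 genes in all. Ifi208 had the smallest p (log2 fold change 0.84, SE 0.28, edgeR adjusted p = 0.167). Ifit1, given by library above, had 0.95 (SE 0.34, adjusted p = 0.249), and its groups overlapped. Irf7 was at 51.0 and 58.0 against 25.3 and 34.2 CPM, without overlap (0.78, SE 0.31, adjusted p = 0.320). A direct test of whether the group difference in CD8 T cells differs from that in B cells called 0 of 39 members, where 0.0309% of 9694 genes were called. At an unadjusted p under 0.05 there were 3 members among 380 genes, and DESeq2 called 0.

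In NK cells 0 of 17 tested members passed (0.0221% of 4519 genes did), with 4 among 330 genes at an unadjusted p under 0.05 and 0 called by DESeq2. Phf11b, Lgals3bp and Ifi213 came closest, at log2 fold changes of 1.05, 0.89 and 1.03 (SE 0.35, 0.37 and 0.48) and edgeR adjusted p of 0.496, 0.608 and 0.644. In CD4 T cells, with 23 to 52 cells a library, only 7 members had enough counts and 0 passed, as did 0.0% of 1106 genes, by either tool. None of these 7 had an unadjusted p under 0.05, against 45 genes in all. In monocytes Bst2 (0.64, SE 0.25, adjusted p = 0.695) and Irf7 (0.63, SE 0.25, adjusted p = 0.710) followed Ifi27l2a. Both were higher in both Cured libraries and did not pass.

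Other genes of the pathway were examined as fixed lists. The 19 type I and III interferon ligand genes did not reach the count filter in any class. Of the receptors and kinases, STAT and IRF factors, upstream sensing genes, negative regulators, further type I induced genes and interferon gamma induced genes, none was called between the groups in any class. In monocytes 15 of 19 further type I induced genes and 7 of 10 interferon gamma induced genes had a positive fold change, with medians of 0.25 and 0.34. In B cells 18 of 40 and 13 of 21 were positive, with medians of -0.03 and 0.06.

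**Figure D4:**
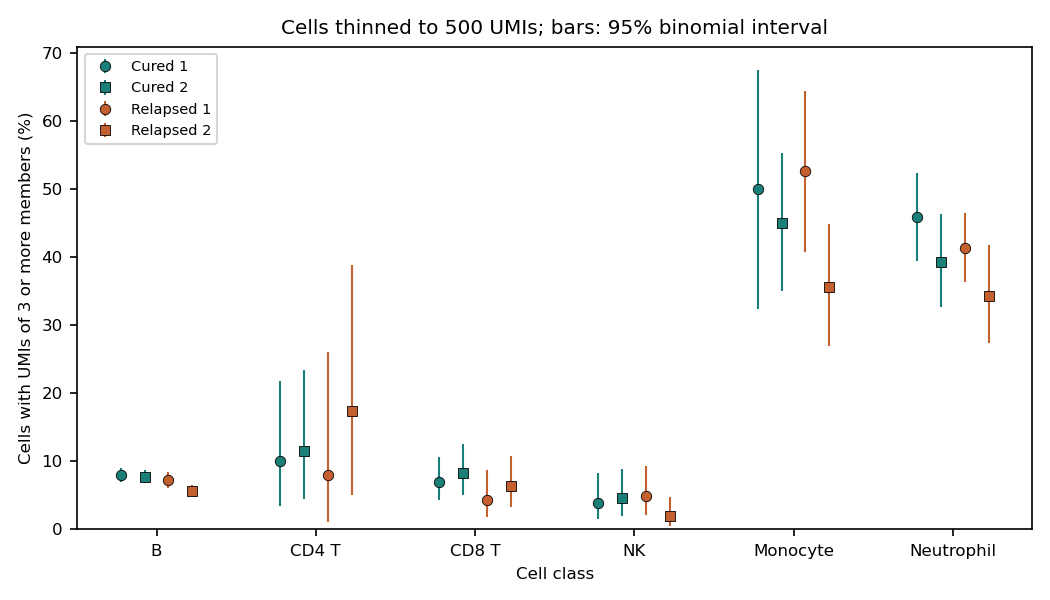
Percent of cells with UMIs of at least 3 members after every cell was thinned to 500 UMIs, by class and library (Cured green, Relapsed orange), with exact 95% binomial intervals. Monocytes and neutrophils lie between 34.3 and 52.7%, and B, CD8 T and NK cells below 8.3%.

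At matched depth the share of cells with several members was highest in monocytes and neutrophils, which overlapped. After thinning each cell to 500 UMIs, which left out no cell, 50%, 45.0%, 52.7% and 35.6% of monocytes and 45.9%, 39.3%, 41.3% and 34.3% of neutrophils had UMIs of 3 or more members. The shares were 7.94%, 7.64%, 7.17% and 5.62% in B cells, 6.93%, 8.23%, 4.32% and 6.28% in CD8 T cells and 3.85%, 4.57%, 4.85% and 1.89% in NK cells. CD4 T cells lay between, at 10%, 11.5%, 8% and 17.4%. For 5 or more members neutrophils had 19.0%, 13.6%, 16.1% and 8.43% and monocytes 8.82%, 9%, 6.76% and 5.08%. In haemoglobin-dominated barcodes they were 0 to 0.712%. Without thinning the B cell shares were 62.7% and 66.5% in Cured and 53.4% and 51.7% in Relapsed. After thinning the groups did not overlap in B and CD8 T cells, with differences of 1.39 and 2.28 percentage points, and overlapped in the other 4 classes. The B cell difference was 2.17 or 0.615 when Relapsed replicate 1 or 2 was left out, and the CD8 T cell difference was 1.30 when Relapsed replicate 1 was. The exact permutation test was at or above p = 0.33, its smallest possible value. Binomial intervals cover counting error only.

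A small fraction of B cells carried IFIT transcripts, and other members were raised in the same cells. An IFIT UMI was found in 125 and 131 Cured B cells and in 52 and 108 Relapsed B cells (4.49%, 4.19%, 2.42% and 3.30%). Thinned to 500 UMIs the shares were 0.790%, 1.05%, 0.699% and 0.794%, which overlapped between the groups. In haemoglobin-dominated barcodes the unthinned share was at most 0.356%. Because the 4 IFIT genes chose the cells, they carry no test. Of the other 34 members tested, 23 were higher and 0 lower in IFIT-positive than in IFIT-negative B cells of the same library (edgeR quasi-likelihood test with the library as a block). In this comparison 0.644% of 8538 genes were called higher and 0.269% lower. All 34 had a positive log2 difference, with a median of 1.11 against -0.03 over all genes. IFIT-positive cells were deeper, at median UMIs of 2366, 2370, 2008.5 and 2256 against 2221, 2340, 1842 and 2020. With cells thinned to 1000 UMIs 13 of 27 tested members were called among 168 of 6729 genes, all 27 were positive and their median was 1.19, against -0.29 over all genes. Without the library block 15 of 34 were called among 27 of 8538 genes, all 34 were positive and their median was 1.09. IFIT-positive cells held less haemoglobin RNA, at 0, 8.70, 89.6 and 19.4 against 244, 227, 4028 and 447 CPM. The part of haemoglobin RNA in the result was not tested.

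Of the signalling and feedback genes, Usp18, Isg15 and Irf7 were called, and Stat2, Herc6 and Irf9 did not pass. Usp18 and Isg15 had the largest differences of the tested members. Usp18 was at 27.8, 23.2, 26.9 and 23.3 CPM in IFIT-positive cells and at 7.003, 4.36, 1.94 and 2.66 CPM in the others, in the order Cured 1, Cured 2, Relapsed 1, Relapsed 2. The 2 sets did not overlap (log2 difference 2.55, SE 0.46, edgeR adjusted p = 7.62e-06). These levels rest on few UMIs. Over all libraries, cells with Ifit2, Ifit3 or Ifit3b held 24 Usp18 UMIs and cells with Ifit1 alone held 2. In Relapsed replicate 1 there were 3 and 0. Isg15 was at 92.5, 72.5, 35.8 and 50.5 against 11.4, 12.7, 9.94 and 12.3 CPM (2.52, SE 0.25, adjusted p = 6.08e-21), again without overlap. Irf7 was at 136, 60.9, 17.9 and 105 against 24.8, 22.5, 9.45 and 18.6 CPM (2.10, SE 0.22, adjusted p = 6.01e-19). Relapsed replicate 1, with the fewest such cells, had the smallest value, from 2 Irf7 UMIs. Irf7 lost its call without the library block (2.21, adjusted p = 0.0930).

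Of the effectors and other induced genes, Oasl1 (2.43, SE 0.38), Rtp4 (2.36, SE 0.26) and Ifitm3 (2.13, SE 0.39) followed Isg15, ahead of Irf7. Rtp4 encodes a chaperone of membrane receptors. Lgals3bp, Slfn5, Oasl2 and Cmpk2 had differences from 1.85 to 2.01. Ifitm3 lost its call without Cured replicate 1 (1.70, adjusted p = 0.0721). Oasl2 kept its call in 1 of the 4 omissions of a library, that of Cured replicate 2 (adjusted p 0.0835 to 0.244 in the others). Lgals3bp kept it without Cured replicate 1 alone (0.0830 to 0.264 in the others), and Cmpk2 without Relapsed replicate 1 alone (0.0698 to 0.187). Lgals3bp and Oasl2 also lost theirs without the library block, at adjusted p of 0.194 and 0.0556. Neutrophil markers were at 43.2, 55.1, 8.96 and 202 CPM in the IFIT-positive B cells and at 67.1, 76.5, 86.1 and 27.5 CPM in the others. They were higher in Relapsed replicate 2 and lower in the other 3 libraries, and monocyte markers were at most 17.9 CPM in either. NK markers were at 9.25, 8.70, 8.96 and 7.77 against 3.26, 4.36, 3.88 and 3.55 CPM, higher in 4 of 4 libraries. The part of these markers in the result was not tested. Ifi27l2a and Ifi203 also have a high level in the other B cells. Ifi27l2a was at 1296, 937, 726 and 1056 against 648, 581, 591 and 536 CPM, and Ifi203 at 352, 397, 367 and 412 against 234, 255, 290 and 231 CPM, and both were called.

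The 11 tested members that did not pass were Oas1a (1.47, SE 0.46, edgeR adjusted p = 0.131), Slfn1 (1.35), Eif2ak2 (0.84), Parp9 (0.76), Stat2 (0.70), Dtx3l (0.70), Dhx58 (0.62), Ddx58 (0.61), Herc6 (0.55), Irf9 (0.31) and Samhd1 (0.25). Stat2 was higher in IFIT-positive cells in 4 of 4 libraries, at 58.7 ± 24.4 against 34.6 ± 8.34 CPM, and Irf9 in 3 of 4. Of 36 further type I induced genes 8 were higher, with Ly6a (0.59, SE 0.06), Ifi206 (1.33, SE 0.22) and Lgals9 (0.77, SE 0.14) at the smallest p. Of 19 interferon gamma induced genes 4 were higher, the GTPases Ifi47 (1.17, SE 0.14), Irgm1 (1.31, SE 0.21), Gbp2 (1.32, SE 0.27) and Gbp7 (1.15, SE 0.32). No receptor, kinase or negative regulator was called.

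**Figure D5:**
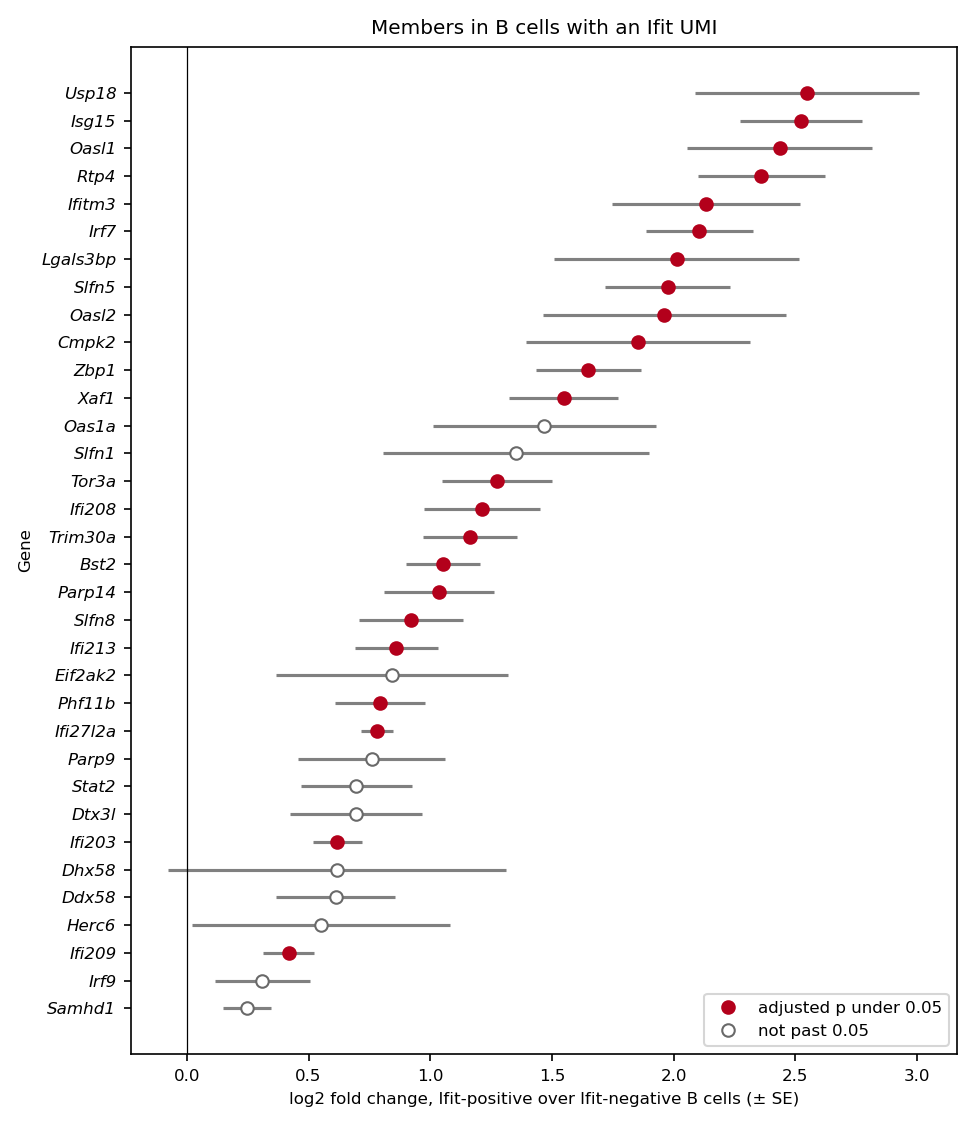
Log2 difference between IFIT-positive and IFIT-negative B cells for the 34 tested members outside the IFIT genes (points, with the standard error as a bar). Filled red points passed an adjusted p of 0.05, and all 34 points lie above 0.

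The stretches upstream of several members show the element that ISGF3 and other IRF factors recognise. The letters GAAANNGAAA were searched on both strands (TTTCNNTTTC on the other) from 250 bases before to 50 bases after each RefSeq start (GRCm38.p6), where matches may overlap. They were present in 20 of 34 members with an entry, or 58.8%, against 3.99% of 27025 genes. Among members called in IFIT-positive B cells 10 of 17 had a match, and among those tested and not called 4 of 9 did. Dhx58, Ifi27l2a, Oas2, Parp14, Parp9, Rtp4, Tor3a, Usp18 and Zbp1 are not in the promoter table. Irf7, Oasl1, Oasl2 and Cmpk2 have no such letters in this window. A match describes the sequence and is not evidence of binding. Below are upstream stretches of Isg15 and Bst2, both raised in IFIT-positive B cells, of Ifit3, which supplied the largest share of B cell IFIT UMIs, and of Ifit1, which did so in CD8 T cells, with matched letters in capitals.
Isg15: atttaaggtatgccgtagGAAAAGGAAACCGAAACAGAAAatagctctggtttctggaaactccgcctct
Bst2: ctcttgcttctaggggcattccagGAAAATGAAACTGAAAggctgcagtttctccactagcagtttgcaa
Ifit3: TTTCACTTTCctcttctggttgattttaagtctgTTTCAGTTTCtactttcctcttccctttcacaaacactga
Ifit1: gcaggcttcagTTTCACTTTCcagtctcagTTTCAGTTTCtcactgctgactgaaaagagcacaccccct
The Isg15 stretch is chr4:156200845-156200914, minus strand, and its last match lies 66 to 57 bases before the start. The Bst2 stretch is chr8:71537557-71537626, minus strand, with a match 124 to 115 bases before it. Ifit3 lies at chr19:34583373-34583446 and Ifit1 at chr19:34640774-34640843, both on the plus strand, with matches 122 to 113 and 85 to 76 bases before the start. Isg15 and Bst2 carry matches that run into each other, Ifit1 and Ifit3 carry separate ones, and none overlaps a gene of GENCODE M21.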

How the data were processed

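The deposited values are raw UMI counts per gene and cell barcode, which the authors made with Cell Ranger 3.1.0 against mm10, per the submitters' processing notes. Mapping and counting settings are not given in the sources used here. Cells with fewer than 200 genes or more than 10% mitochondrial UMIs were left out. A cell joined a class with at least 3 markers of its lineage and fewer than 3 of any other. No doublet caller was run, and 422 mixed cells were left out, as were B cells with Cdkn2a, GFP or BCR-ABL UMIs. The members, marker lists, pathway lists, tests and the rule for named genes were chosen with earlier results of these data known. Named genes were the members past the test, the 3 smallest p-values of each group comparison, the largest differences of each class contrast, every non-passing member of the IFIT contrast and 12 genes given in every library.

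UMIs were summed per library and class and tested with edgeR 4.0.16 in R 4.3.3 (TMM factors, filterByExpr, robust quasi-likelihood fit, adjusted p under 0.05 over all genes), with DESeq2 1.42.0 as an alternative. A gene of the pathway lists is not reported here. The fit recovered known changes in simulated B cell counts that had the same spread for every gene. That check asked for only part of the changes and does not measure power in the real pools or in the sparser classes. Classes needed 20 cells in every library. The IFIT contrast in CD8 T cells had 15 IFIT-positive cells in 1 library and was not run. Cells were thinned to 500 UMIs for shares. Same-numbered libraries did not deviate together (correlations -0.07 to 0.07). Coordinates are from GENCODE M21 and promoters from RefSeq GRCm38.p6. Irf9, Ifi203 and Rtp4 share same-strand exons with another listed gene, and 10 members have a stretch of 300 or more bases at least 95% identical to another, found with blastn 2.17.0.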

Additional observations from a re-analysis of the deposited data

Results flagged for a closer look

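Haemoglobin-dominated barcodes, which the class comparisons do not use, were flagged for 2 members. In the pooled barcodes 3 UMIs would be 6.11 CPM. Relapsed replicate 1 supplied 378619 of the 490606 pooled UMIs, so 3 UMIs stand for a higher level in each other library. Rsad2 was at a mean of 342 CPM over 4 libraries, with 296 and 368 CPM in the Cured and 465 and 239 CPM in the Relapsed libraries, and 210 UMIs in 358 barcodes. Neutrophils, the leading leukocyte class for Rsad2, lay between 58.9 and 184 CPM, and B cells were at 1.01 CPM. Isg15 was at a mean of 261 CPM, with 49.3, 342, 322 and 329 CPM from 2, 13, 122 and 11 UMIs in the same order of libraries. Its value in Cured replicate 1 is thus not distinct from the floor. Fewer UMIs were found there for Irf7 with 9, Ifi27l2a with 5, Samhd1 with 5 and Oasl2 with 4. The source of this RNA was not tested.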

How the results depend on the processing

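Each group has 2 pools, and 23 to 118 cells a library stand behind the CD4 T cell and monocyte values, so small differences there were not detectable. Of the values recomputed under other settings, 771 single-gene values kept their direction and side of the threshold, 37 lost their call, 4 gained one and 6 reversed. Of the counts and shares 167 held, 13 moved and 7 reversed. Besides the losses given in the report, calls were lost for Phf11b, Ifi213 and Ifitm3 in CD4 T cells, Ifitm3 and Cmpk2 in CD8 T cells, and Ifi208, Ifi203, Phf11b and Oas2 in NK cells against the other classes. The causes of the changes below were not tested. Between the groups, the members called went from 0 to 5 in B cells without Relapsed replicate 2 (0 to 5 over the 4 omissions). They went from 1 to 0 in monocytes under the 2-marker gate, and from 0 to 1 in neutrophils without the low-count filter and without either Relapsed replicate (0 to 1 over the omissions). With cells thinned to 1000 UMIs, where fewer genes were tested, class contrasts called 11 (B), 4 (CD4 T), 8 (CD8 T), 10 (NK), 12 (monocyte) and 18 (neutrophil) of 19 members, among 1941, 652, 1262, 1206, 1187 and 2068 of 3068 genes. The IFIT contrast called 13 of 27 thinned and 15 of 34 without the library block. Reversals were Ifi27l2a in CD4 T cells at -0.083 thinned and -0.089 to 0.88 over the omissions, Samhd1 there at -0.73 to 0.42, and Slfn1 at -0.61 to 0.00033. Bst2 in CD8 T minus B cells was 0.20 thinned. The Cured minus Relapsed share in CD4 T cells (-1.93 points) was 6.63 at 1000 UMIs, 5.67 for at least 2 members, and -6.62 to 2.77 over the omissions. The share in monocytes (3.35) was -4.96 for at least 2 members, -2.05 under the 2-marker gate, and -5.20 to 11.9 over the omissions. In NK cells (0.841) omissions gave -0.640 to 2.32. Numbers shared by replicates did not pair the libraries. With the replicate block, members called stayed at 0 in B, CD4 T, CD8 T, NK cells and neutrophils and 1 in monocytes, while all genes called went from 0 to 156 in B cells and from 23 to 3 in CD8 T cells.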

Other observations

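Within CD8 T cells, Ifit1 was often found without the other IFIT genes. Of 90 CD8 T cells with an Ifit1 UMI, 14 also had a UMI of Ifit2, Ifit3 or Ifit3b, and in B cells 14 of 37 did. The 76 CD8 T cells with Ifit1 alone and the 59 with Ifit2, Ifit3 or Ifit3b were described by library without a test, since 6 to 40 and 9 to 22 cells stand behind each value. Irf7 was at 30.2, 47.9, 20.3 and 0 CPM in cells with Ifit1 alone and at 217, 135, 28.2 and 145 CPM in cells with the others. CD8 T cells without any IFIT UMI held 40.8, 49.2, 25.6 and 29.3 CPM. Isg15 was at 163, 63.9, 61.0 and 41.7 CPM with Ifit1 alone and at 231, 249, 84.6 and 174 CPM with the others. By CPM the latter were higher in 4 of 4 libraries for both genes, on few UMIs. In Relapsed replicate 1 each side held 1 Irf7 and 3 Isg15 UMIs. Their order there comes from the total UMIs alone, 49148 against 35456. In Relapsed replicate 2 cells with Ifit1 alone held 0 Irf7 UMIs and 1 Isg15 UMI. The summed level of Ccl5, Nkg7, Cxcr3 and Il2rb, genes of antigen-experienced T cells, was 1135, 5364, 2157 and 708 CPM in cells with Ifit1 alone and 5214, 9531, 4365 and 8278 CPM in cells without IFIT UMIs. It was lower with Ifit1 alone in 4 of 4 libraries. These genes were chosen with earlier results known.

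In the haemoglobin-dominated barcodes Isg20, an exonuclease gene outside the set that was singled out after its values were seen, was at 863, 868, 589 and 718 CPM, against 78.5 ± 17.0 CPM in neutrophils (n = 4).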
